A study of Oryza sativa Japonica Group with 8 samples.

Results

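The phytochrome family of rice consists of the red and far-red light receptor genes PHYA, PHYB and PHYC. They were found on the array through the gene annotation, by the names PHY18 or PHYA, PhyB and phyC. They are 3 of 17905 genes with a probe set here, and have 4 of the 57258 probe sets tested, 2 for PHYA (gene ID 4333930), 1 for PHYB (4332623) and 1 for PHYC (4334135). All 4 are described, and no filter on low values was applied. RNA came from the above-ground tissue of 5-day-old Nipponbare seedlings grown at 28 °C, with 2 Affymetrix arrays in each of 4 groups. The groups were OsYHB seedlings in continuous red light at 50 µmol per square metre per second (Rc50), OsYHB seedlings in darkness, wild type (WT) in Rc50 and WT in darkness. OsYHB seedlings are homozygous for a single insertion of Ubi::OsYHB, a constitutively active allele of rice phytochrome B driven by the maize Ubiquitin promoter. Their replicate 1 was line 1, with a stated 41-fold overexpression, and their replicate 2 was line 9, with a stated 23-fold overexpression. The design addresses how this allele acts with and without light, next to the response of WT to red light.

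Phytochromes carry a bilin chromophore and switch between an inactive red-absorbing form and an active far-red-absorbing form. The phytochrome A protein builds up in etiolated seedlings and is degraded in light, and transcription of PHYA is lowered by light in many plants, including grasses. Phytochrome B is more stable in light and is the main red light receptor of de-etiolated plants, and phytochrome C of rice depends on phytochrome B for its stability. The tyrosine-to-histidine change in the chromophore pocket that gives YHB its name, first studied in Arabidopsis, keeps the receptor signalling in darkness.

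The values are intensities on a linear scale, and tests were run on log2 intensities with limma. The call threshold was an adjusted p of 0.05 over all probe sets. Array medians lay between 20.4 and 20.9, and every value of the 4 phytochrome probe sets was above 300, from 338.6 upwards. The ratio of 3-prime to 5-prime signal of the Gapdh control, a measure of RNA integrity, was 4.37 to 4.45 in OsYHB Rc50, 4.31 to 4.51 in OsYHB darkness, 4.11 to 4.65 in WT Rc50 and 4.01 to 4.30 in WT darkness. The same ratio of the Actin control was 7.27 to 7.64 in OsYHB Rc50, 7.84 to 8.36 in OsYHB darkness, 7.05 to 9.60 in WT Rc50 and 6.76 to 7.102 in WT darkness. Both ratios were thus higher on every OsYHB array than on both WT dark arrays, and highest on WT Rc50 replicate 2. The 8 measured green shoot markers had summed intensities of 61894 to 62629, 58656 to 63295, 63320 to 63601 and 27788 to 28971 in the same order of groups. Of these markers, only CHLI was at or below the array median on both arrays of a group, at 17.4 and 20.1 in WT darkness. Of 7 measured root markers, LSI2, CASP1, IRT2 and YSL15 stayed at or below the array median in all 4 groups and NRT2.3 in 3, whereas LSI1, a silicon transporter gene, had intensities of 471.5 to 943 and IRT1, an iron transporter gene, of 49.4 to 64.6. Of 10 measured seed markers, the glutelin genes GLUA1, GLUB4, GLUB5 and GLUD1 and the seed protein gene RAG1 were at or below the array median in all 4 groups, whereas GLUA2 had intensities of 204 to 374 and RAG2 of 22.5 to 27.

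PHYA was the member of the family that differed between groups. Its intensity was lowest in OsYHB seedlings, slightly higher in WT seedlings in red light, and far higher in dark-grown WT seedlings. On the probe set with the stronger signal the intensities were 1083.5 and 1123 in OsYHB Rc50, 1220 and 1146 in OsYHB darkness, 1373 and 1421 in WT Rc50, and 3546 and 2858 in WT darkness. Both WT dark arrays thus lay above the other 6. The second probe set gave 339 and 364 in OsYHB Rc50, 399 and 357 in OsYHB darkness, 453 and 467 in WT Rc50, and 1462 and 1059 in WT darkness. Its group means stood in the same order, again with both WT dark arrays above the other 6. The name of the first probe set ends in _s_at, which in the design of these arrays marks probes shared by several transcripts, and that of the second does not.

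**Figure D1:**
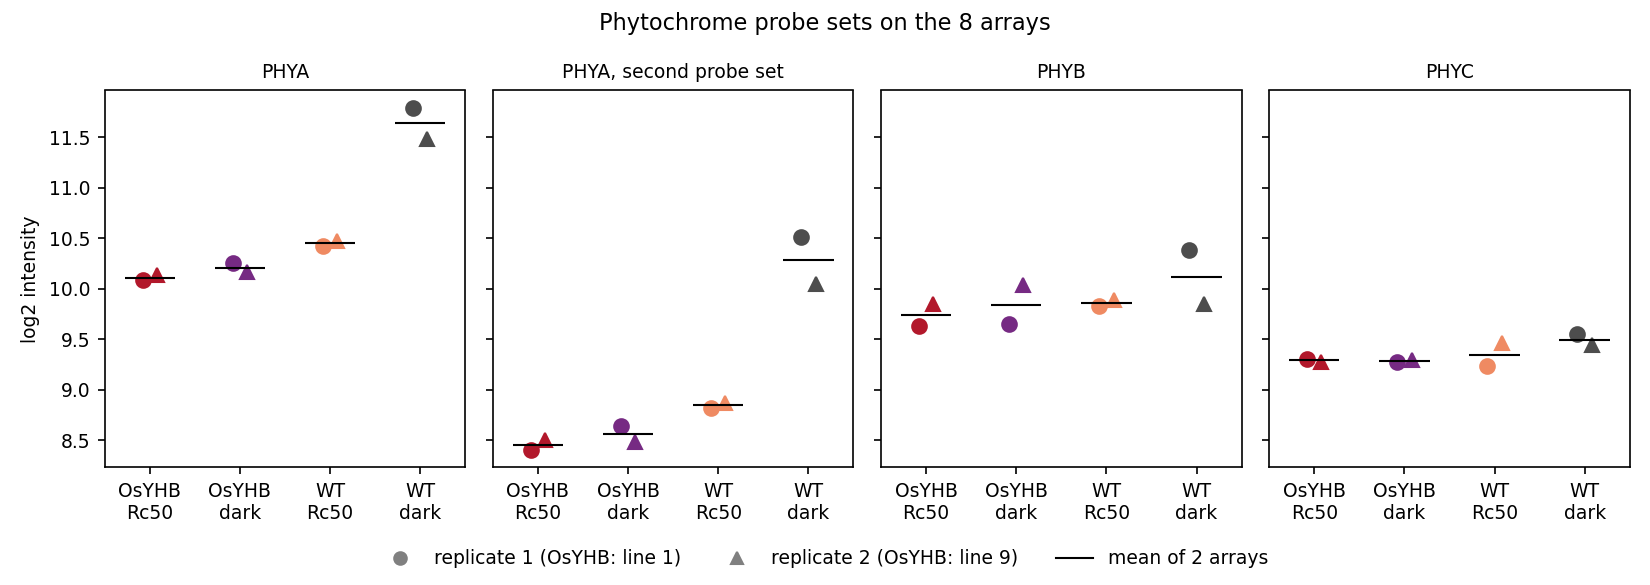
Log2 intensity of the 2 PHYA probe sets, the PHYB probe set and the PHYC probe set (panels) on each array, by group. Circles are replicate 1, triangles replicate 2, and lines the mean of 2 arrays. Both PHYA probe sets are highest on the WT dark arrays, while the PHYB and PHYC arrays of different groups mostly overlap. Levels are not comparable between panels.

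PHYA was lower in red light than in darkness in WT. The mean log2 intensity of the first probe set was 10.45 ± 0.04 in WT Rc50 and 11.64 ± 0.22 in WT darkness (SD, n = 2 each). The log2 difference was -1.19 (SE 0.13, 95% confidence interval -1.49 to -0.88, limma adjusted p = 0.000989), which leaves 43.9% of the dark level. The second probe set fell by 1.44 on the log2 scale (SE 0.16, adjusted p = 0.00106), to 37.0% of the dark level. In tissue samples such as these, fewer cells with the transcript and less transcript per cell cannot be told apart. The 2 PHYA probe sets were the only ones of the 4 called in this comparison. Of all probe sets, 9.73% were called and 4.59% were called lower. These shares include dim probe sets. A fit of only those above the median level, the phytochrome probe sets among them, called 6053, next to 5570 in the fit of all. PHYA kept its call without any single array, with adjusted p-values up to 0.01435 for the first probe set and 0.015 for the second.

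PHYA was also lower in OsYHB than in WT when both grew in darkness. The first probe set averaged 10.21 ± 0.06 in OsYHB darkness and 11.64 ± 0.22 in WT darkness (SD, n = 2 each). The log2 difference was -1.43 (SE 0.13, 95% confidence interval -1.73 to -1.12, limma adjusted p = 0.00033), or 37.1% of the WT dark level. The second probe set fell by 1.72 on the log2 scale (SE 0.16, adjusted p = 0.000352), to 30.3%. Again both PHYA probe sets were called and the other 2 were not. Of all probe sets, 17% were called and 9.27% were called lower. The fit of only those above the median level called 10302, next to 9715 in the fit of all. This comparison and that of red light in WT share the WT dark arrays. Without any single array, the adjusted p of PHYA was at most 0.00572 and 0.00609 for the 2 probe sets.

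Some markers of other tissues differed between the same groups, and others of the same lists did not follow them. The summed intensity of the 10 measured seed and late embryo markers was 353 to 353.5 in OsYHB Rc50, 437 to 484 in OsYHB darkness, 354 to 1209 in WT Rc50 and 890 to 1330 in WT darkness. In OsYHB darkness against WT darkness, 3 of these markers were called lower and 1 higher, where 9.27% of all probe sets were called lower and 7.69% higher. Those that were lower are the late embryogenesis gene LEA19 and the dehydrin genes RAB21 and RAB16B, which drought and abscisic acid also induce. The higher one was the glutelin gene GLUB5, with intensities of 4.8 to 8 over all arrays. The seed storage genes GLUA2 (0.50), RAG1 (0.26) and RAG2 (0.05) had positive log2 differences that were not called. In WT Rc50, replicate 1 had the low marker sum and replicate 2 the high one, with RAB21 at 28.7 and 565, and PHYA stood at 1373 and 1421 on these arrays. The summed root markers were 578 to 582 in OsYHB Rc50, 681 to 757 in OsYHB darkness, 616 to 627 in WT Rc50 and 751 to 1067 in WT darkness. Most of each sum was the signal of LSI1 alone, at 943 and 655 in WT darkness. The part of these seed and root markers, and of the Gapdh and Actin ratios, in the PHYA difference was not tested.

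In seedlings that already carried OsYHB, red light made little measured difference to PHYA. The log2 difference of OsYHB Rc50 against OsYHB darkness was -0.10 for the first probe set (95% confidence interval -0.40 to 0.20, limma adjusted p = 0.772) and -0.11 for the second (-0.48 to 0.27, adjusted p = 0.806). None of the 4 phytochrome probe sets was called here, and only 6 of all probe sets were (0.0105%), against 8365 at an unadjusted p below 0.05. The intervals still allow a fall of 0.40 to 0.48 on the log2 scale.

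The difference between these light responses was tested as the interaction, the response of OsYHB minus that of WT. It was 1.09 for the first PHYA probe set (SE 0.19, 95% confidence interval 0.66 to 1.52, limma adjusted p = 0.0173) and 1.33 for the second (SE 0.23, adjusted p = 0.0173). PHYA was called on both, where 4.22% of all probe sets were called and 1.53% were called higher. The fit of only probe sets above the median level called 3141, next to 2414 in the fit of all. In OsYHB Rc50 the first probe set differed from WT darkness by -1.53 on the log2 scale, whereas the separate changes by red light and by OsYHB add up to -2.62. The size of the interaction kept between 0.93 and 1.24 without any single array, but its call did not always hold. The adjusted p was 0.0591 without OsYHB Rc50 replicate 1, 0.0728 without OsYHB Rc50 replicate 2, 0.08015 without OsYHB dark replicate 2, 0.0678 without WT Rc50 replicate 1 and 0.0805 without WT Rc50 replicate 2. The second probe set lost its call without the same arrays, with adjusted p-values up to 0.0824.

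The 3 lower groups were close to each other. OsYHB seedlings in darkness had slightly less PHYA signal than WT seedlings in red light, at -0.24 on the log2 scale for the first probe set (95% confidence interval -0.54 to 0.06, limma adjusted p = 0.396) and -0.28 for the second (-0.66 to 0.09, adjusted p = 0.411). No phytochrome probe set was called in that comparison, where 0.194% of all were. Under red light, the log2 difference of OsYHB against WT was -0.34 for the first probe set and -0.39 for the second. The intervals (-0.64 to -0.04 and -0.76 to -0.02) left out 0. At an unadjusted p below 0.05, 7.60% of all probe sets passed there. The adjusted p-values were 0.631 and 0.645, however, and 0.0192% of all probe sets were called in that comparison. As shares of the WT dark level, the first probe set stood at 34.7% in OsYHB Rc50, 37.1% in OsYHB darkness and 43.9% in WT Rc50, and the second at 28.2%, 30.3% and 37.0%. Of the neighbours in this order, only WT Rc50 and WT darkness differed by the test.

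**Figure D2:**
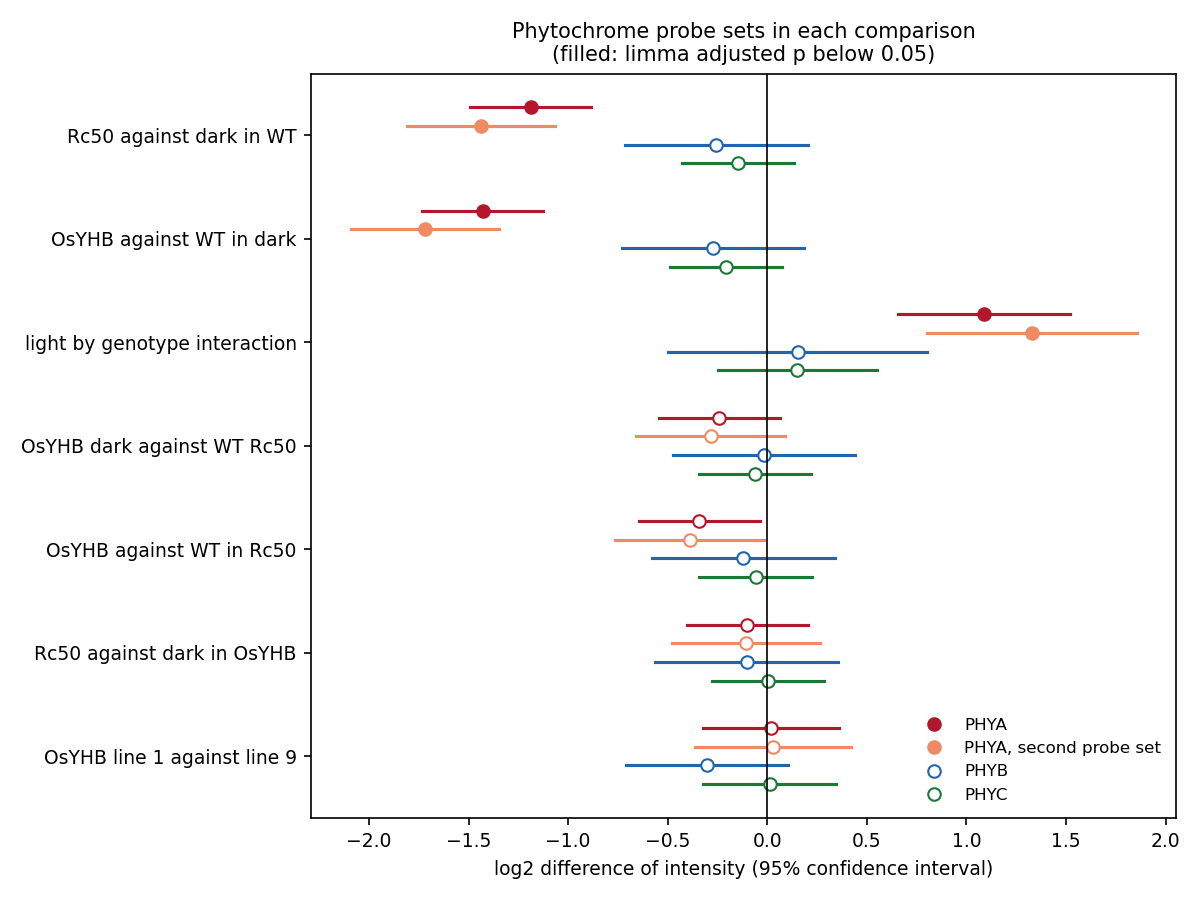
Log2 differences of intensity (x axis) with their 95% confidence intervals for each phytochrome probe set (colours) in each comparison (rows). Filled circles passed the limma test at an adjusted p below 0.05. The PHYA probe sets were called for red light in WT, for OsYHB in darkness and for the interaction, and PHYB and PHYC in none of the comparisons.

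The 2 PHYA probe sets followed each other closely, with a Pearson correlation of 0.999 over the 8 arrays, given as a description of arrays that share their groups. Their distance within an array was not constant. The first was above the second by 1.68 and 1.63 log2 units in OsYHB Rc50, by 1.61 and 1.68 in OsYHB darkness, by 1.60 and 1.60 in WT Rc50, and by 1.28 and 1.43 in WT darkness. The gap was thus smallest on both WT dark arrays, and the second probe set gave the larger fold change in every comparison with WT darkness. Whether the probe sets differ in background, in cross-hybridisation or in the transcripts they read was not tested. The annotation lists 2 RefSeq transcripts for PHYA, 3 for PHYB and 1 for PHYC, and all 3 genes lie on the same chromosome.

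PHYB, the gene of the receptor from which the transgene was made, showed no called difference. Its intensities were 794 and 921.5 in OsYHB Rc50, 803 and 1051 in OsYHB darkness, 911 and 948 in WT Rc50, and 1334 and 923 in WT darkness. Only WT dark replicate 1 stood apart, and all groups overlapped except OsYHB Rc50 with WT darkness. In WT the log2 difference of red light against darkness was -0.26 (SE 0.20, 95% confidence interval -0.71 to 0.20, limma adjusted p = 0.509). In darkness the difference of OsYHB against WT was -0.27 (-0.73 to 0.19, adjusted p = 0.396). Both values rested on WT dark replicate 1, without which they were 0.01 and -0.007.

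The PHYB probe set did not show the stated overexpression. The upper bound of the 95% confidence interval for OsYHB over WT was 1.14-fold in darkness and 1.27-fold in Rc50, next to the stated 41-fold for line 1 and 23-fold for line 9. The lines were not in the order of those values either. Line 1 gave 794 in Rc50 and 803 in darkness, and line 9 gave 921.5 and 1051. The difference of line 1 against line 9 was -0.30 on the log2 scale (SE 0.17, 95% confidence interval -0.71 to 0.10, adjusted p = 1), where 0.0734% of all probe sets were called. PHYA (0.02 and 0.03) and PHYC (0.01) differed less between the lines, and none was called. The sources used here do not give the probes' place in the gene or in the transgene, so this probe set checks neither the labels nor the transgene. With a single array for each line and light condition, line and replicate cannot be told apart.

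PHYC, the gene of the third receptor, had the narrowest range. Its probe set gave 634.5 and 618 in OsYHB Rc50, 621.5 and 628 in OsYHB darkness, 601 and 707 in WT Rc50, and 751 and 694 in WT darkness. WT darkness was above both OsYHB groups on every array, and overlapped WT Rc50 through WT Rc50 replicate 2. The log2 difference was -0.15 for red light in WT (SE 0.12, 95% confidence interval -0.43 to 0.14, limma adjusted p = 0.543) and -0.21 for OsYHB in darkness (SE 0.12, -0.49 to 0.07, adjusted p = 0.288). The value for red light in WT was -0.03 without WT Rc50 replicate 1 and -0.26 without WT Rc50 replicate 2. The OsYHB groups were within 0.003 log2 units of each other, with an interval of -0.28 to 0.29. The interaction was 0.15 for PHYC (-0.25 to 0.55, adjusted p = 0.687) and 0.15 for PHYB (-0.50 to 0.80, adjusted p = 0.815), and neither was called. The PHYC interaction was 0.03 without WT Rc50 replicate 1 and 0.27 without WT Rc50 replicate 2.

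All 4 phytochrome probe sets were highest, by group mean, in WT darkness, but only those of PHYA differed by the test. For PHYB this order rested on replicate 1 of that group. All 4 were higher on replicate 1 than on replicate 2 of WT darkness, by 0.31 and 0.46 log2 units for PHYA, 0.53 for PHYB and 0.11 for PHYC. The median of that difference over all probe sets was -0.02, and its median size was 0.19. For PHYB 9.71% of all probe sets had a larger replicate difference in WT darkness, and for PHYC 67.3% did. The correlation over the 8 arrays was 0.67 between PHYA and PHYB, 0.82 between PHYA and PHYC and 0.66 between PHYB and PHYC. These values share the WT dark arrays and their replicate difference, and are given as descriptions.

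Among other light signalling genes, some receptors and transcription factors rose in the comparisons in which PHYA fell. The list was chosen with earlier results of these data known, so its counts are descriptions. The shares set beside them include dim probe sets. Of 46 names on that list 7 were measured, and of these 4 were higher and none lower in WT red light, where 5.14% of all probe sets were called higher. The median log2 difference was 0.67, and -0.04 over all probe sets. They were GLK1 (1.18) and GLK2 (0.67), transcription factors of chloroplast development, CRYD (0.68), a DASH-type cryptochrome, and PHOT2 (0.99), a phototropin that senses blue light. GLK2 and CRYD lost the call without WT Rc50 replicate 1 (adjusted p = 0.06395 and 0.106) or replicate 2 (0.128 and 0.0764), GLK2 also without WT dark replicate 1 (0.0687) and CRYD without WT dark replicate 2 (0.0551). GLK2 also lost it on the arrays of the compared groups alone (0.0542), and 1 of its 3 other probe sets was not called (0.0967). PHOT2 had intensities of 1794 and 1934 in WT Rc50 and of 1015 and 872 in WT darkness.

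In OsYHB darkness 3 of the 7 light signalling genes were higher than in WT darkness and none lower, where 7.69% of all probe sets were called higher. The median log2 difference was 0.29, and 0.01 over all probe sets. CRYD rose by 2.32 (SE 0.13, limma adjusted p = 4.64e-05), with intensities of 299 and 367 in OsYHB darkness and 69.5 and 63.1 in WT darkness. PHOT2 rose by 1.02 and GLK1 by 0.62. GLK1 had an adjusted p of 0.0394, which was above the threshold in 7 of the 8 fits that leave out 1 array, all but that without OsYHB dark replicate 1, at up to 0.193 without OsYHB dark replicate 2, and was 0.114 on the arrays of the compared groups alone. CRYD was also the gene of this list that was higher in OsYHB darkness than in WT red light (1.64, adjusted p = 0.00624, where 0.0699% of all probe sets were called higher), a call lost without OsYHB dark replicate 2 (0.0667), WT Rc50 replicate 1 (0.054) or WT Rc50 replicate 2 (0.0879).

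The measured genes for chromophore synthesis, SE5 and HO2, were not called in any comparison. SE5, the haem oxygenase gene needed for the phytochrome chromophore in rice, had log2 differences of 0.15 in WT red light (95% confidence interval -0.18 to 0.47) and 0.10 in OsYHB darkness (-0.22 to 0.43). HO2, a second haem oxygenase gene, had -0.27 (-0.76 to 0.22) and 0.29 (-0.20 to 0.78). Its interval left out 0 for red light in OsYHB (-0.52, -1.01 to -0.03, limma adjusted p = 0.316). So did that for OsYHB darkness against WT red light (0.56, 0.07 to 1.05, adjusted p = 0.253). The phototropin gene PHOT1A had 0.24 (-0.16 to 0.65) and -0.11 (-0.52 to 0.30). For OsYHB in red light it had -0.43, with an interval that left out 0 (-0.83 to -0.02, adjusted p = 0.646). The other names of the list were not analysed here.

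**Figure D3:**
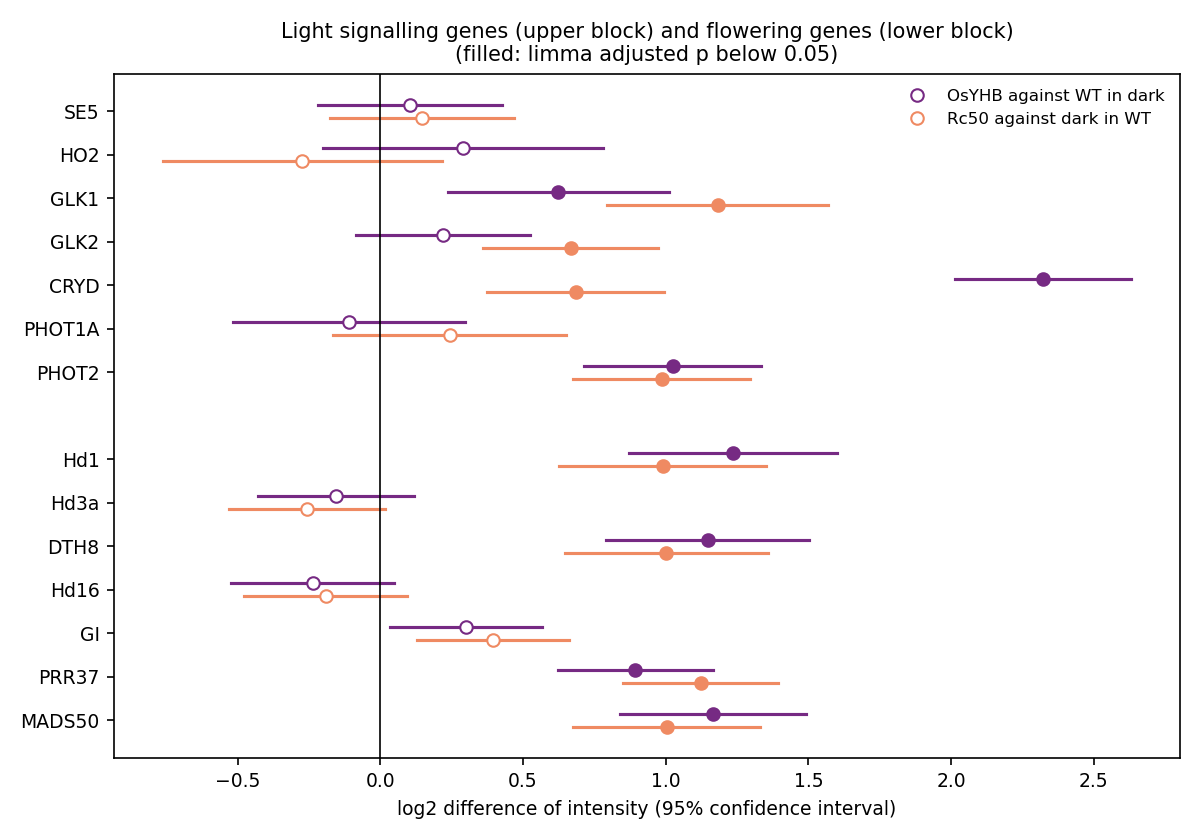
Log2 differences of intensity with 95% confidence intervals (x axis) for 7 light signalling genes (upper block) and 7 flowering genes (lower block), for OsYHB against WT in darkness (purple) and for red light against darkness in WT (orange). Filled circles passed the limma test at an adjusted p below 0.05. CRYD has the largest rise in OsYHB darkness, at 2.32, and 4 flowering genes rose in both comparisons.

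In rice, phytochromes act on flowering through the photoperiod pathway, and several genes of that pathway rose in the comparisons in which PHYA fell. This list was also chosen with earlier results of these data known, so its counts are descriptions. Of 7 measured genes, 4 were higher and none lower both in WT red light, where 5.14% of all probe sets were called higher, and in OsYHB darkness, where 7.69% were. The median log2 difference of the 7 was 0.99 in WT red light and 0.89 in OsYHB darkness, and over all probe sets -0.04 and 0.01. They were Hd1, a CONSTANS-like regulator (0.99 in WT red light and 1.24 in OsYHB darkness), DTH8, a subunit of a CCAAT-binding factor (1.00 and 1.15), the pseudo-response regulator gene PRR37 (1.12 and 0.89) and MADS50, a MADS-box gene (1.00 and 1.17). MADS50 had intensities of 159 and 135 in OsYHB darkness, 126 and 137 in WT Rc50, and 72.0 and 59.3 in WT darkness. Without WT Rc50 replicate 2, Hd1 (adjusted p = 0.0626) and DTH8 (0.0532) lost their call in WT red light. The clock-linked gene GI had 0.39 (adjusted p = 0.0746) and 0.30 (0.118), and the casein kinase gene Hd16 -0.19 and -0.24. The florigen gene Hd3a was between 4.7 and 6.1 on all arrays, below the array medians.

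The red light response also differed between genotypes for some of these genes. In the interaction 2 of the 7 light signalling genes, CRYD (-1.57) and PHOT2 (-1.13), and 3 of the 7 flowering genes, DTH8 (-1.02), PRR37 (-0.74) and MADS50 (-1.07), were lower and none higher, against 2.68% of all probe sets. The sign means that the response was smaller or more negative in OsYHB. For CRYD the responses were -0.89 in OsYHB (adjusted p = 0.0902) and 0.68 in WT. The CRYD interaction kept its call without any single array (adjusted p up to 0.0257). PHOT2, DTH8 and MADS50 lost theirs in 5, 6 and 6 of the 8 fits without 1 array, and PRR37 in all 8, with adjusted p-values up to 0.0880, 0.170, 0.123 and 0.191. With replicate as a block, the interaction of DTH8 (0.0560) and of PRR37 (0.0796) was not called. Nor was that of DTH8 with an offset of 16 (0.0585) or that of PRR37 with median centring (0.05205). The second PRR37 probe set had an interaction of -0.85 that was not called (0.319).

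Genes whose level ran most closely with PHYA were taken from the 412 named genes with a range of group means of at least 1 log2 unit. The 10 most alike had Pearson correlations of 0.98 to 0.99 with PHYA over the 8 arrays. Among them were the Aux/IAA genes IAA18 and IAA30 of auxin signalling, the homeobox gene HOX1, the brassinosteroid receptor gene BRI1, the bZIP gene ABF2 and the zinc finger gene OsC3H35. The heat shock genes HSP16.9A and CLPB1, the dehydrin gene Dhn1 and the auxin conjugate hydrolase gene ILL3 complete the 10. BRI1 had group means of 9.63 in OsYHB Rc50, 9.69 in OsYHB darkness, 9.86 in WT Rc50 and 10.80 in WT darkness on the log2 scale, the same order as PHYA. ILL3 had 3.69, 4.10, 4.35 and 11.28 in the same order of groups, a far wider range. Outside WT darkness its means, and those of CLPB1 (3.26 to 3.47), were below the median level of all probe sets (4.38). The order of those groups thus lies in dim signal for both genes.

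A pattern close or opposite to that of PHYA was common among these genes, which were preselected for a wide range of group means. Of the 412 genes, 117 had a correlation with PHYA of at least 0.9 and 95 of at most -0.9, so the order of the 10 rests on small differences. By Spearman correlation, 4 of the 10 remained among the 10 most alike. Over the 6 arrays other than WT darkness, a description chosen after seeing the data, the correlation was 0.96 for OsC3H35 and 0.93 for HOX1 and ABF2, but 0.44 for CLPB1. The 5 genes most opposite to PHYA (-0.99 each) were GDCSH, a glycine decarboxylase subunit gene, the phytoene synthase gene OsPSY2, the ferredoxin-thioredoxin reductase gene FTR-B, the glutaredoxin gene GRXS7 and PDX12 of the vitamin B6 synthesis family.

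**Figure D4:**
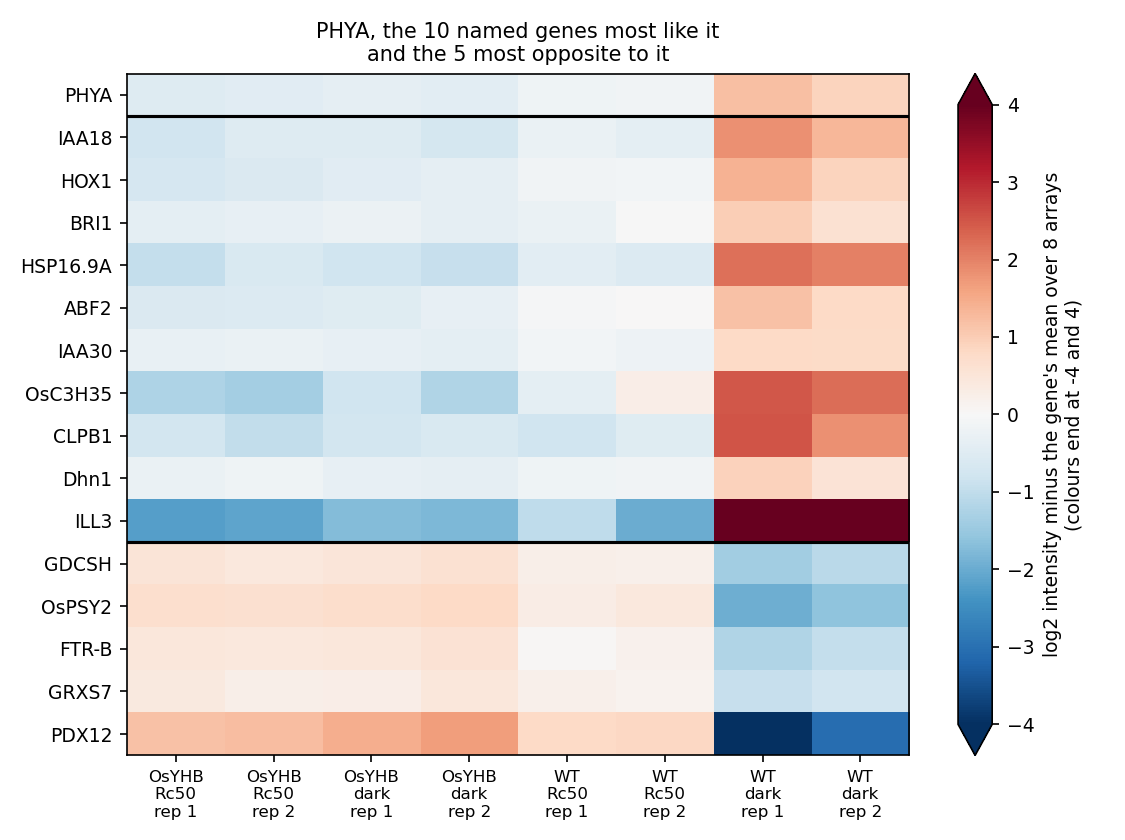
Log2 intensity minus the gene's mean over the 8 arrays (colour) for PHYA (top row), the 10 named genes most like it (middle block) and the 5 most opposite to it (bottom block), on each array (columns). PHYA and the middle block are highest on the 2 WT dark arrays, and the bottom block is lowest there.

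A search over more genes, with a lower limit on the range, gave 6 genes with a correlation of at least 0.9 for PHYB and 8 for PHYC. It covered 1827 named genes with a range of group means of at least 0.3. The highest correlations with PHYB were those of the potassium transporter gene HAK18 (0.94), OsSPPL4 (0.92), osysl9 (0.91), BRXL2 (0.91) and Anp32 (0.90). PHYB itself had no called difference and stood apart only on WT dark replicate 1. None of these genes was called for red light in WT or for OsYHB in darkness. Without the WT dark arrays their correlations with PHYB were 0.66 to 0.89. For PHYC the highest were CPT1 (0.99), LEA19 (0.94), RAB21 (0.93), HOS13 (0.93) and OsC3H31 (0.92). CPT1 had group means of 2.62 in OsYHB Rc50 and 3.01 in WT darkness on the log2 scale, below the median level of all probe sets (4.38), so its likeness lies in dim signal. LEA19 and RAB21 were high on both WT dark arrays and on WT Rc50 replicate 2, the 3 arrays on which PHYC was also highest.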

How the data were processed

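The deposited table holds linear intensities, 1 for each probe set on each array. RMA, GCOS and limma are named in the submitters' processing notes without version or role, and how the authors corrected the background of these intensities is not given there. Per the labels' protocols, a 3-prime amplification kit made the biotinylated RNA. The arrays have nearly equal medians, and their values were used as deposited. No scanner files, detection calls or scan batches were used here. No pair of arrays was identical.

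Intensities were converted to log2. Of 57381 probe sets, 123 controls were left out. Group means were fitted to all 8 arrays with limma 3.58.1 in R 4.3.3 (4 residual and 4.27 prior degrees of freedom), two-sided, with Benjamini-Hochberg adjustment over 57258 probe sets per comparison. A further fit compared line 1 with line 9. The 6 comparisons are red light in WT, OsYHB in darkness, red light in OsYHB, OsYHB in red light, the interaction, and OsYHB darkness against WT red light. The procedure was tested on simulated data. The labels call the replicates biological, and the p-values rest on the spread between them and on the prior. In OsYHB that spread includes any difference between line 1 and line 9. The number of replicates limits the precision.

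Probe sets were named through the platform annotation and the RefSeq gene table (22436 with 1 gene, 95 with several, 34727 with none). A gene with several probe sets is represented by the one with the highest mean. The phytochrome genes and the light signalling, flowering and marker lists were chosen with earlier results of these data known. Named are every phytochrome probe set, list genes called in at least 1 comparison, and genes ranked by correlation with a phytochrome gene; list genes not called were chosen after their values were seen. Replicate number marks the same line in both OsYHB groups. Deviations from group means correlated at 0.145 between the OsYHB groups and at 0.0932 between the WT groups. Alternatives were a fit with the replicate number as a block, other normalizations, a dim filter, an offset, a trended prior, fits of the compared groups alone, gene means and fits without 1 array. Plots were drawn with matplotlib 3.10.9 in Python 3.11.15.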

Additional observations from a re-analysis of the deposited data

Results flagged for a closer look

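Several red light responses differed between genotypes by the interaction test, the response of OsYHB minus that of WT on the log2 scale. For PHYA the difference was 1.09 on the first probe set and 1.33 on the second. It was -1.57 for CRYD, -1.13 for PHOT2, -1.02 for DTH8, -0.74 for PRR37 and -1.07 for MADS50. The report gives the fits in which their calls were lost.

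Of the array's 64 probe sets against reporter or marker genes, which are no rice genes, 1 showed signal in OsYHB alone. Its log2 intensity was 13.26 and 13.02 in OsYHB Rc50, 13.18 and 12.90 in OsYHB darkness, 2.98 and 2.98 in WT Rc50, and 3.02 and 2.85 in WT darkness. The lowest OsYHB array was 9.89 above the highest WT array. The PHYB probe set shows no such split by genotype.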

How the results depend on the processing

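PHYA kept its direction and its call for red light in WT and for OsYHB in darkness in every fit run. The first probe set ranged from -1.34 to -1.03 and from -1.58 to -1.27 without single arrays. Its interaction ranged from 0.93 to 1.24 and lost the call without 5 of the 8 arrays, by fits with fewer arrays. PHYB and PHYC were called in no fit. Values near 0 changed sign with quantile normalization for PHYC in red light in OsYHB (-0.0109) and for PHYB in OsYHB darkness against WT red light (0.0262). Without single arrays, PHYB ranged from -0.52 to 0.0095 for red light in WT, from -0.30 to 0.0913 for red light in OsYHB, from -0.11 to 0.42 for the interaction and from -0.21 to 0.18 for OsYHB darkness against WT red light. PHYC ranged from -0.0161 to 0.0221 for red light in OsYHB, from -0.18 to 0.0584 for OsYHB in red light and from -0.18 to 0.0554 for OsYHB darkness against WT red light.

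The counts over all probe sets moved more, and the causes were not tested. Called were 5570 probe sets for red light in WT (2386 to 5900 without single arrays, 3329 on the compared groups alone) and 9715 for OsYHB in darkness (3647 to 9823, 4872 on the compared groups alone, and 5980 genes by gene means). The interaction had 2414 (809 to 3304). Red light in OsYHB had 6 (0 to 94 without single arrays), with 2 above the median level, 0 with the offset of 16, 45 with a trended prior, 0 on the compared groups alone, 2 with the replicate block and 1 by gene means. OsYHB in red light had 11 (1 to 40), with 1 above the median level, 1 with the offset, 22 on the compared groups alone, 18 with the replicate block and 0 by gene means. OsYHB darkness against WT red light had 111 (1 to 192), with 11 with the offset, 232 on the compared groups alone and 40 by gene means. The block changed no call of a phytochrome gene. In the block fit the PHYA difference stayed at -1.19 for red light in WT and at -1.43 for OsYHB in darkness, and the adjusted p of its interaction was 0.0287. Gene means test fewer features. The fit on compared groups could not give the interaction, and the comparison of lines had no array left out. No detection calls were used, so dim values may be background. At an unadjusted p below 0.05, 8365 probe sets passed for red light in OsYHB and 4353 for OsYHB in red light.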

Other observations

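By the order of genes in the RefSeq assembly, the nearest measured genes before and after PHYA had log2 differences of -0.14 (limma adjusted p = 0.505) and -0.07 (0.846) for red light in WT, and of -0.20 (0.255) and -0.07 (0.803) for OsYHB in darkness. Those beside PHYB had -0.37 (0.23) and 0.15 (0.567) for red light in WT, and -0.44 (0.107) and 0.11 (0.606) for OsYHB in darkness. Those beside PHYC had -0.31 (0.21) and, for the potassium channel gene KCO1, 0.42 (0.192) for red light in WT, and -0.45 (0.0566) and -0.13 (0.655) for OsYHB in darkness. None of these 6 genes was called, where 9.73% of all probe sets were called for red light in WT and 17% for OsYHB in darkness. So few genes do not set PHYA apart from its surroundings. The gene after PHYB was dim, with a mean log2 intensity of 3.08, below the median level of all probe sets (4.38).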
